A study of Mus musculus with 47 samples.

Results

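The common gamma-chain cytokine receptors were taken as 7 genes, Il2ra, Il2rb, Il2rg, Il7r, Il4ra, Il9r and Il21r, chosen by symbol from a table of 17754 genes. All 7 had a row in the deposited matrix, and each was followed through all 47 libraries of mouse T-cell precursors, of which 19 were labelled Bcl11b knockout and 4 had been treated with a gamma-secretase inhibitor (GSI). Bcl11b is a zinc-finger transcription factor whose expression begins around commitment of precursors to T-cell fate, and GSI blocks the cleavage that activates Notch. Values were fragments per kilobase of transcript scaled to library size (FPKM), with a lowest value of 0.1 that serves as the floor of the table.

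The gamma chain, encoded by Il2rg, pairs with a ligand-specific chain to form the receptors for IL-2, IL-4, IL-7, IL-9, IL-15 and IL-21, and it signals through Jak3 while the partner chain engages Jak1. STAT proteins, chiefly Stat5, Stat6 and Stat3 according to the receptor, carry the signal to genes such as Cish, the Socs feedback inhibitors and the Pim kinases. In the early thymus the IL-7 receptor supports survival and growth of precursors, the IL-2 receptor alpha chain is the surface marker CD25 that defines the DN2 and DN3 stages, and Il2rb is known as a feature of NK and other innate lymphoid cells.

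The main comparison used 25 libraries from E13.5 fetal liver cells that had all received a Cre retrovirus and had then been cultured over OP9-DL1 or OP9-DL4, bone marrow stromal lines that display a Notch ligand. There were 14 knockout libraries from floxed Bcl11b cells (8 on OP9-DL1, 6 on OP9-DL4) and 11 control libraries from C57BL/6 cells with intact Bcl11b (8 and 3), some of either genotype with a ROSA26R-YFP reporter. Cultures held Flt3L and IL-7 at 5 ng/ml each, except that IL-7 was lowered to a level the labels do not give in 4 knockout and 3 control libraries. The protocol gives knockout cells a DN2a gate (high Kit, CD25 positive) and controls a DN2b gate (intermediate Kit, CD25 positive), so gate and genotype cannot be told apart where the sort followed it. By title, 8 knockout libraries are DN2a, 5 only DN2 and 1 (OP9-DL1 replicate 7) DN2b, while 8 controls are DN2b and 3 only DN2. Since Il2ra encodes the CD25 used in this gate, its level was set in part by the sort. Normal C57BL/6 fetal liver cells without Cre, on OP9-DL1 at standard IL-7, gave 4 untreated DN2a and 2 untreated DN2b libraries and 2 of each with 1 µM GSI for the last 12 hours. DN2b replicate 1, with and without GSI, is titled DN3, and DN2a replicate 4 was taken at day 4.5. The remaining 12 libraries, from thymus, bone marrow or a later vector transduction, are described last. Some libraries are repeat harvests of 1 culture (knockout OP9-DL1 replicates 3 to 5 and 6 to 7, control OP9-DL1 replicates 4 to 6), several titles name cells pooled over dates, and p-values therefore measure only the spread between these libraries.

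Promoter sequences from RefSeq (GRCm38.p6) were matched for 6 of the 7 members, all but Il2rb. Shown here are the 250 bases before the annotated start of the 3 members whose differences lead the results: Il21r, lower in knockout cells (chr7:125603179-125603428, plus strand), and Il4ra and Il9r, which moved in opposite directions between the DN2a and DN2b stages (chr7:125552021-125552270, plus strand, and chr11:32200280-32200529, minus strand). Each reads 5′ to 3′ on the gene's strand, with motif matches in capitals.
Il21r promoter: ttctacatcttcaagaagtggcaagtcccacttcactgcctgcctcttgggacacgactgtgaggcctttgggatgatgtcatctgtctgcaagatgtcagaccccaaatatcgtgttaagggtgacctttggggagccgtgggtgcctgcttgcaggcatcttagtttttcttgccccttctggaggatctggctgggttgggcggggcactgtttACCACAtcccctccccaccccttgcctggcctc
Il4ra promoter: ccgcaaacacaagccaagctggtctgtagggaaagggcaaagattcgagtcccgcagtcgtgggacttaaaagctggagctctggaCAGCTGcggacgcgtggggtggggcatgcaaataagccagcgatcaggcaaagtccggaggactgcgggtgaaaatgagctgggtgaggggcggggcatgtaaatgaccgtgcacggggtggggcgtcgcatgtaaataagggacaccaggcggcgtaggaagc
Il9r promoter: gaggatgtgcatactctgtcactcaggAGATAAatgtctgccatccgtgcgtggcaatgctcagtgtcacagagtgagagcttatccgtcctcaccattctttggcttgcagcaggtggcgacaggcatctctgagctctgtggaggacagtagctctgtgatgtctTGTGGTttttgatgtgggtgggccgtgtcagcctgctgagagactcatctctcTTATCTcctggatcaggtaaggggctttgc
Motifs were searched on both strands as exact letters, and no matches overlapped. The Runx core TGTGGT, present in 14.0% of 32851 promoters of the same length, occurred in Il9r at -83 to -78 and in Il2rg at -227 to -222. In Il21r it lay on the other strand at -33 to -28, where the printed letters are ACCACA. Il9r also held the GATA site AGATAA or its complement TTATCT at -223 and at -30, which 10.0% of promoters hold. Il4ra held the E-box CAGCTG at -164 to -159, which 13.0% of promoters hold. A STAT dimer site TTCNNNGAA, found in 7.02% of promoters, occurred in Il7r at -142 to -134, where its letters were TTCAGGGAA. The Il2ra window held none of these 4 motifs. In RefSeq order Il4ra and Il21r are neighbours on chromosome 7, and Il2ra lies next to Il15ra on chromosome 2.

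Across the 47 libraries Il2ra and Il2rg stood above the other receptor genes in level per length, while the order of the others varied. Il2ra was the most abundant, with a lowest, median and highest FPKM of 95.8, 377 and 723, and it exceeded Il2rg in 46 of 47 libraries, the exception being a cultured thymic DN3 control. Il2rg followed at 48.2, 143 and 279 FPKM and exceeded Il7r in all 47. Il7r had a median of 33.6 FPKM (0.1 to 85.5), Il4ra 18.2 (0.1 to 59.4) and Il9r 14.1 (3.43 to 33.7). Il7r exceeded Il4ra in 33 libraries and Il4ra exceeded Il9r in 24, so the middle of the order did not hold from library to library. Il21r had a median of 4.5 FPKM (0.1 to 16.2) and Il2rb of 4.04 (0.1 to 33.8). Il21r was above Il2rb in 27 libraries, so the bottom of the order did not hold either. The shared gamma chain and CD25 were thus abundant in every condition. Il9r never reached the floor, and the other 4 chains did so in some libraries.

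**Figure D1:**
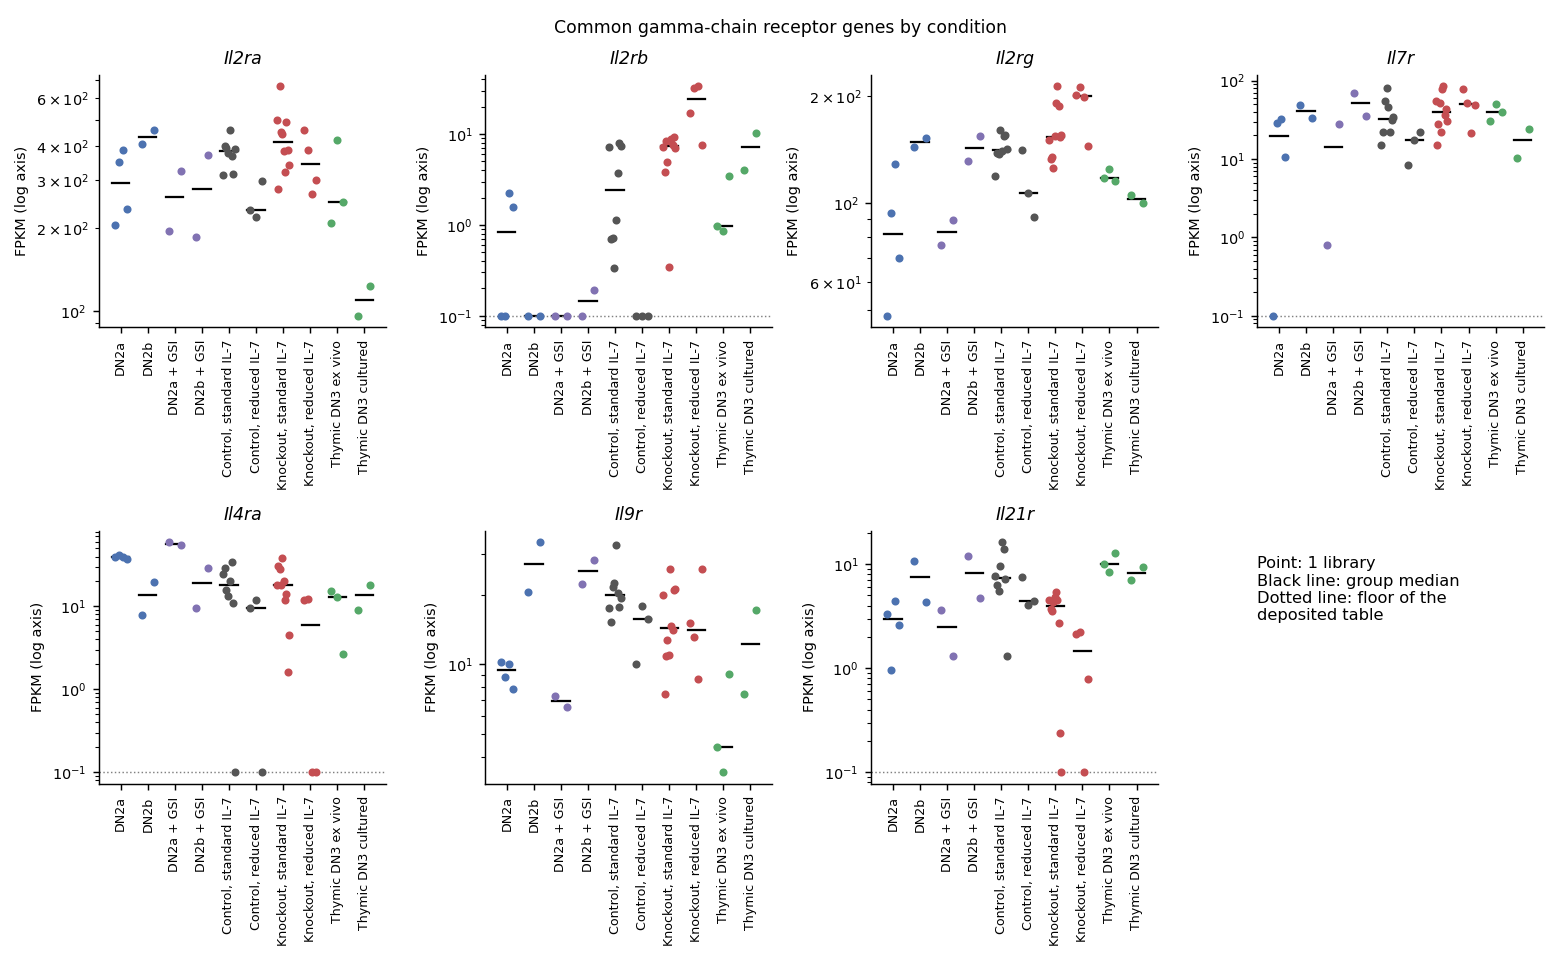
FPKM (log axis) of each receptor gene in each library, by condition; points are libraries, black lines are group medians and the dotted line is the table's floor of 0.1. The 3 thymic DN3 ex vivo points include the LckCre control, and Il2rb lies at the floor in the 3 reduced-IL-7 controls while knockout libraries at reduced IL-7 reach 33.8.

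Floor values were not spread evenly. All 10 libraries with Il2rb at the floor carried title dates of the first of the 3 calendar years in the titles, and none was a knockout. Whether these values are the cells' own level or come from the authors' batch adjustment cannot be told apart in this table. All 4 floor values of Il4ra (2 knockout, 2 control) and both of Il21r (knockout OP9-DL4 replicates 2 and 6) were on OP9-DL4. The Il7r row was at the floor in DN2a replicate 1 alone. Totals over genes ran from 581205 to 1005744 FPKM, 11756 to 13370 genes reached 1 FPKM per library, and read depth is unknown because the table holds no counts and is named as batch-adjusted with ComBat.

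The targeted gene was examined first. Bcl11b lay at 8.77 to 37.9 FPKM in the 14 knockout libraries (median 25.1) and at 16.9 to 84.4 in the 11 controls (median 54.5), a fitted difference of -1.22 (SE 0.21, limma adjusted p = 0.000127) on the log2(FPKM + 1) scale used throughout, which understates changes of low genes. The library labelled control OP9-DL1 replicate 1 went against its label, at 16.9 FPKM against 23.6 in the knockout library of the same title date. The labels do not say which exons the floxed allele loses, and a gene-level FPKM also counts RNA outside the deleted part.

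Among the receptor chains, Il21r was lower in knockout cells. Il2rb was called higher, but not once libraries of the first title year were left out, and the other 5 did not pass the test. Gate and genotype cannot be told apart in these differences where the sort followed the protocol. Normal DN2a cells also had a lower mean Il21r than DN2b cells (2.83 against 7.54 FPKM), without passing the test given below. The fit held stroma and IL-7 level as covariates, and 2 of 7 members were called at an adjusted p under 0.05, beside 16.9% of the 12678 genes tested (9.8% higher, 7.1% lower). The median fitted difference over the members was 0.30, beside 0.04 over all genes tested. With title dates as a block in the 9 same-date pairs, which come from 7 separate culture pairs, the number of genes called fell from 2142 to 1282 while the same 2 members were called.

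Il21r encodes the ligand-specific chain for IL-21. In the 8 control OP9-DL1 libraries it lay at 4.06, 7.59 and 16.2 FPKM (lowest, median, highest), and in the 8 knockout OP9-DL1 libraries at 2.14, 4.39 and 5.43. On OP9-DL4 the 3 controls stood at 4.42, 7.16 and 1.30 FPKM, and the 6 knockouts at 2.23, 0.1, 2.72, 0.237, 0.784 and 0.1. Knockout libraries were the lower ones on either stroma, with the groups overlapping at their edges. The fitted difference was -1.05 (SE 0.23, n = 14 and 11, limma adjusted p = 0.00203). In the 9 same-date pairs Il21r was lower in the knockout library in 9 of 9, by 0.50 to 2.72 in size on the log2 scale, and the blocked fit gave -1.39 (SE 0.21, limma adjusted p = 0.00147).

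Il2rb encodes the beta chain shared by the IL-2 and IL-15 receptors. Knockout libraries ran from 0.345 to 33.8 FPKM with a median of 8.02, and controls from the floor to 7.97 with a median of 0.726. Of the knockout libraries 13 of 14 reached 1 FPKM, against 5 of 11 controls, so that Il2rb passed the low-value filter, which needed 11 libraries, only with the knockout libraries counted. The fitted difference was 1.69 (SE 0.42, limma adjusted p = 0.00555, and 0.00733 with no filter), and the knockout library was the higher in 8 of 9 same-date pairs. Over the second and the third title year, which leave out every library at the floor, it was 0.88 (SE 0.39, limma adjusted p = 0.168), while Il21r gave -1.04 (SE 0.26, limma adjusted p = 0.0113). The 1 reduced-IL-7 library of those years has its own covariate level, so this is in effect the fit at standard IL-7. The fits of Il2rb within OP9-DL1, OP9-DL4, either IL-7 level or the third year, given below, also passed the filter only with knockout libraries counted. Without the control library whose Bcl11b went against its label, Il2rb gave 1.60 (limma adjusted p = 0.0106) and Il21r -1.04 (limma adjusted p = 0.00339). With knockouts titled DN2a and controls titled DN2b alone, 8 against 8, they gave 1.99 (limma adjusted p = 0.0314) and -1.29 (limma adjusted p = 0.0284). In that set gate and genotype cannot be told apart, and its controls include all 3 with Il2rb at the floor. There, without that control library and with the block on title dates, Il2rb again passed the filter only with knockout libraries counted.

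**Figure D2:**
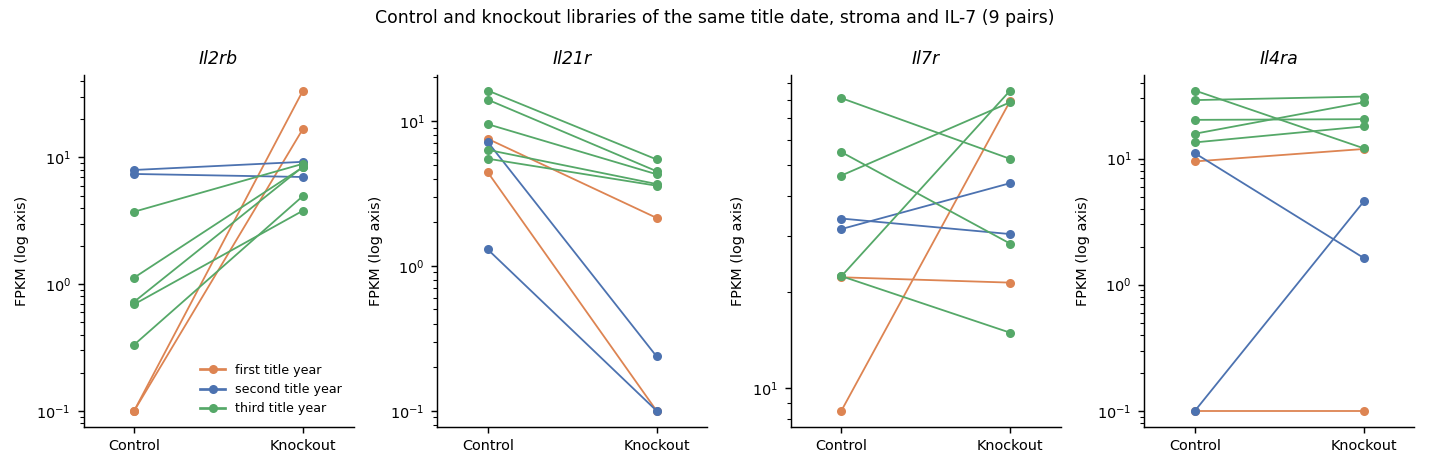
FPKM (log axis) of 4 receptor genes in the 9 pairs of control and knockout libraries that share title date, stroma and IL-7 level, coloured by title year. Il21r falls along all 9 lines and Il2rb climbs along 8, with the steepest lines of Il2rb in the pairs of the first year.

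Il2rb values differed in layout between the 3 title years, a contrast that was not tested by an interaction. In the first year the 3 knockout libraries stood at 16.8, 32.3 and 33.8 FPKM and all 3 controls at the floor. In the second year the 4 knockouts (7.01 to 9.24) and the 2 controls (7.41 and 7.97) overlapped, and the fit to that year gave 0.04 (limma adjusted p = 0.943). In the third year the 7 knockouts had a median of 7.18 FPKM (0.345 to 8.92) and the 6 controls of 0.926 (0.332 to 7.21), with a fitted difference of 1.20 (limma adjusted p = 0.188). All 11 libraries without knockout of the first year, the stage and GSI libraries included, were at or below 0.192. Il21r kept its direction in each year, at -1.29 in the first (limma adjusted p = 0.199), -1.33 in the second (0.307) and past the threshold in the third.

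The other chains differed less. Il2rg, the gamma chain, averaged 168 ± 31.1 FPKM in knockouts and 135 ± 21.3 in controls (SD, n = 14 and 11), a difference of 0.30 (SE 0.11) that missed the threshold (limma adjusted p = 0.0608). It passed without covariates (0.0407) and with repeat harvests of a culture averaged, where it was 0.40 (limma adjusted p = 0.0325). Averaging harvests also brought Il7r, the IL-7 receptor alpha chain, past the threshold (0.87, limma adjusted p = 0.0433), from 0.59 (SE 0.31, adjusted p = 0.218) over single libraries. Il7r lay at 14.9 to 85.5 FPKM in knockouts and 8.48 to 80.9 in controls, almost the same range, and was higher in 4 of 9 pairs. Il2ra, subject to the CD25 gate, averaged 405.6 ± 106 FPKM in knockouts and 343 ± 73.4 in controls (0.25, SE 0.13, adjusted p = 0.2). Il9r, the IL-9 receptor alpha chain, averaged 15.8 ± 5.94 and 19.2 ± 5.65 FPKM (-0.32, SE 0.18, adjusted p = 0.256). Il4ra, which binds IL-4, had medians of 13.1 FPKM in knockouts and 13.4 in controls (0.31, SE 0.38, adjusted p = 0.666).

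**Figure D3:**
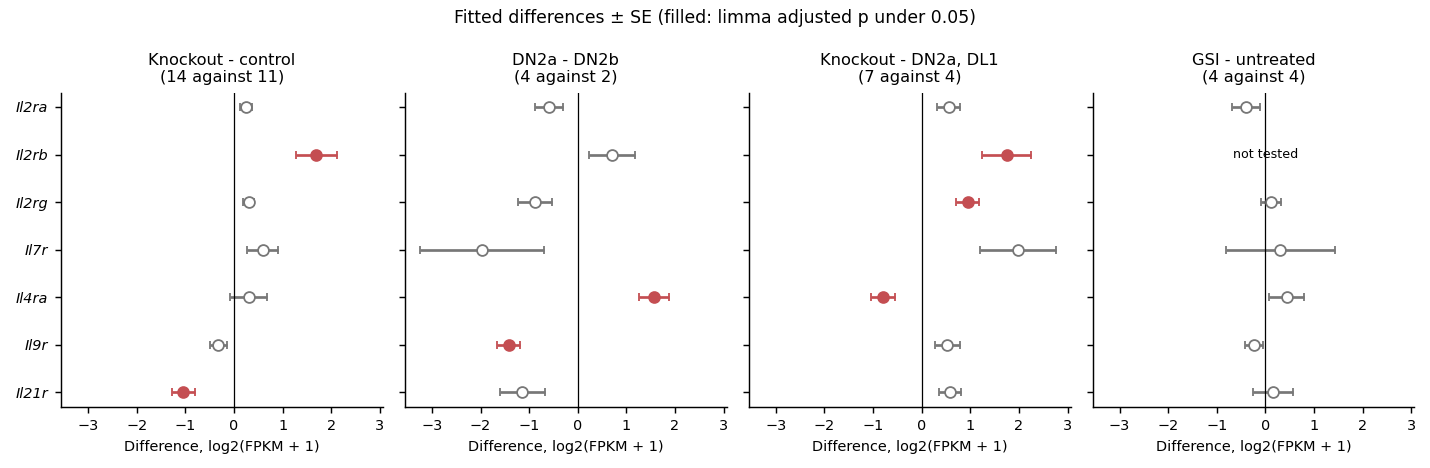
Fitted differences on the log2(FPKM + 1) scale with their standard errors for each receptor gene in 4 comparisons; filled points passed a limma adjusted p of 0.05. Il2rb and Il21r are filled for knockout against control, Il4ra and Il9r for DN2a against DN2b, and Il2rb, Il2rg and Il4ra for knockout against DN2a.

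Some markers of other cell types moved with genotype. The summed FPKM of 9 NK and innate lymphoid markers ran from 613 to 1287 in knockouts and from 160 to 491 in controls. Ncr1, Prf1 and Eomes, which belong to this list, were under 1 FPKM in all 25 libraries. Of the 6 of these markers tested, 4 were called higher, beside 9.8% of all genes tested. They were the signalling adaptors Tyrobp (3.43, limma adjusted p = 1.4e-06) and Fcer1g (2.72, limma adjusted p = 1.72e-08), with Klrd1 (2.09) and Klrb1c (0.67). Gzmb did not pass (1.81, limma adjusted p = 0.0522), and Nkg7 went the other way without passing (-0.31, limma adjusted p = 0.132). Cpa3, a mast cell protease, read 186 to 789 FPKM in knockouts and 74.3 to 332 in controls (1.35, limma adjusted p = 7.84e-05). Gzma, a granzyme of cytotoxic and innate lymphoid cells, read 1624 to 4630 and 717 to 1894 (1.19, limma adjusted p = 3.19e-05). T-precursor markers, 8 genes with Cd3e and Ptcra among them, summed to 825 to 1895 FPKM in knockouts and 1838 to 3141 in controls, and 5 of the 8, Bcl11b itself among them, fell while Gata3 rose. Summed stromal markers overlapped (23.4 to 67.1 against 15.3 to 69.9), and the 3 B-cell markers in the table were each under 1 FPKM. Myeloid sums (12.2 to 52.9 against 9.92 to 28.9) and erythroid sums (0.465 to 14.4 against 1.38 to 10.3) overlapped too. The part of these markers in the Il2rb and Il21r differences was not tested, and in bulk RNA fewer cells of a type cannot be told apart from less RNA per cell.

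The labelled IL-7 level is the ligand dose for Il7r and Il2rg. Per the growth protocol, lowering IL-7 was later given up over poor cell recovery and RNA quality. No member passed the test between reduced and standard IL-7, where 2 of 12678 genes (0.0158%) were called by limma and 929 (7.33%) had an unadjusted p under 0.05. Il4ra had a difference of -1.08 (SE 0.43, limma adjusted p = 0.497) and Il2ra of -0.38 (SE 0.14, limma adjusted p = 0.434), reduced minus standard. Of the 7 reduced libraries 6 were of the first title year, so year and IL-7 cannot be told apart here.

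Il2rb was also read by genotype within each IL-7 level. At reduced IL-7 the 4 knockout libraries lay at 7.60 to 33.8 FPKM and the 3 controls all at the floor. At standard IL-7 the 10 knockouts (0.345 to 9.24) and 8 controls (0.332 to 7.97) overlapped. How many of all genes lacked overlap at reduced IL-7 was not counted, and limma called 430 of 12879 genes there. All 3 controls and 3 of the 4 knockouts at reduced IL-7 were of the first title year. Year and IL-7 therefore cannot be told apart in this contrast or in its interaction. The interaction, which rests on those 3 floor values, was 2.99 (SE 0.75) with an unadjusted limma p of 0.000519 and an adjusted p of 0.0602, beside 0.701% of 14271 genes called. It passed with a pseudocount of 0.1 (4.91, adjusted p = 0.021) and when any of 4 libraries was left out, the lowest adjusted p being 0.0108 without knockout OP9-DL4 replicate 5, the only reduced library of the second year. Fitted apart, Il2rb gave 0.88 (SE 0.39, limma adjusted p = 0.168) at standard IL-7, and no fold is given at reduced IL-7 because every control there is at the floor. Il21r gave -1.04 (limma adjusted p = 0.0113) at standard and -1.32 (limma adjusted p = 0.141) at reduced IL-7, with an interaction of 0.01 (SE 0.53, limma adjusted p = 0.996). In 1 knockout culture date both IL-7 levels were sequenced on OP9-DL4, and Il2rb then stood at 9.24 FPKM with standard and 7.60 with reduced IL-7.

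Stroma had no called interaction with genotype. None of 14271 genes passed in limma (0%), 338 had an unadjusted p under 0.05 (2.37%), and each member had an adjusted p of 1. Within OP9-DL1 the differences were 1.68 for Il2rb (limma adjusted p = 0.037) and -0.95 for Il21r (limma adjusted p = 0.00393). The smaller OP9-DL4 set gave 1.67 (limma adjusted p = 0.282) and -1.42 (limma adjusted p = 0.178). Il4ra levels were low on OP9-DL4, with medians of 3.10 FPKM in the 6 knockouts and 0.1 in the 3 controls, against 19.4 and 18.0 on OP9-DL1. That contrast was noticed in these values and is given without a test, since the OP9-DL4 libraries come from the first and second title years and most OP9-DL1 libraries from the third.

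Downstream of the receptors, Jak3, the kinase of the gamma chain, differed by -0.05 (limma adjusted p = 0.878). Among 11 response genes 2 rose, the survival kinases Pim1 (0.63, limma adjusted p = 0.00192) and Pim2 (1.46, limma adjusted p = 0.0226). The feedback inhibitor Socs3 fell, from a median of 19.6 to 9.62 FPKM (-0.75, limma adjusted p = 1.97e-06), and Cish missed the threshold at -0.66 (adjusted p = 0.0763). Of 6 ligand genes Il4 and Il15 were in the table, and Il4 rose from a median of 2.46 to 7.47 FPKM (1.28, limma adjusted p = 9.03e-05). Of the partner chains, Il15ra, which presents IL-15 to Il2rb and Il2rg, rose from a median of 4.79 to 7.44 FPKM (0.44, limma adjusted p = 0.0246) and Crlf2 did not pass. Pim2 was the 1 list gene with a called IL-7 interaction (4.23, SE 0.55, limma adjusted p = 0.000109). Its level was 18.0 to 59.4 FPKM in knockouts at reduced IL-7 and 0.1, 0.1 and 2.51 in the 3 controls. Those 3 controls were all of the first title year, so year and IL-7 cannot be told apart for Pim2 either.

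Between the normal stages, Il4ra was higher and Il9r lower in DN2a than in DN2b cells. Il4ra stood at 39.3, 41.8, 39.0 and 37.8 FPKM in the 4 DN2a libraries and at 7.95 and 19.8 in the 2 DN2b libraries. The DN2a values were close together, and the fitted difference was 1.57 (SE 0.31, limma adjusted p = 0.0259). Il9r showed the reverse, 10.2, 8.82, 10.1 and 7.84 FPKM in DN2a against 20.6 and 33.7 in DN2b (-1.43, SE 0.23, limma adjusted p = 0.0173). Thus 1 member of 7 was higher, beside 4.23% of the 13364 genes tested, and 1 was lower, beside 9.23%.

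Both stage calls rested on few libraries. With title dates as a block they missed the threshold (limma adjusted p = 0.0516 for Il4ra and 0.0656 for Il9r), and both also missed it without DN2a replicate 4 (0.0714 and 0.0617) or DN2b replicate 1 (0.0966 and 0.0548). Without DN2b replicate 2 the Il9r call was lost (adjusted p = 0.0618). Sizes held their direction, at 0.96 to 2.18 for Il4ra and -1.77 to -1.08 for Il9r over the 6 fits. Summed myeloid markers were 54.9 to 74.9 FPKM in DN2a and 12.4 to 25.3 in DN2b, with Elane under 1 in all. NK and innate lymphoid markers summed to 398 to 748 FPKM in DN2a and 57.1 and 336 in DN2b, and T-precursor markers to 445 to 804 and 2016 and 2886. The part of these markers in the Il4ra and Il9r differences was not tested.

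The median difference over the 7 members was -0.88, beside -0.07 over all genes tested. Of the chains that did not pass, 4 had lower values in DN2a. Il2rg stood at 48.2, 93.6, 128 and 70.2 FPKM in DN2a and 144 and 153 in DN2b (-0.88, limma adjusted p = 0.133). Il21r was at 3.31, 0.956, 4.45 and 2.60 against 10.8 and 4.33 FPKM (-1.14, adjusted p = 0.136), and Il2ra at 206, 351, 389 and 237 against 407 and 457 (-0.59, adjusted p = 0.188). Il7r was at 0.1, 28.5, 32.1 and 10.7 FPKM in DN2a and 49.4 and 33.6 in DN2b (-1.98, SE 1.28, adjusted p = 0.318), and without DN2a replicate 1 the difference was -0.89. Il2rb was at the floor in both DN2b libraries and in DN2a replicates 1 and 2, and at 2.26 and 1.57 FPKM in the DN2a replicates of the second title year.

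In the signalling lists Stat2 (-1.03) and Stat6 (-0.71) were lower in DN2a. Of the 11 response genes, Socs3 was lower (-2.82) while Pim1 (1.86) and the survival gene Bcl2l1 (1.30) were higher, all with limma adjusted p between 0.0104 and 0.0497. Socs3 read 0.1 to 4.12 FPKM in DN2a and 12.6 and 17.3 in DN2b, and Pim1 195 to 251 and 35.3 and 101.

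GSI for 12 hours changed no receptor gene past the threshold. Across 12783 genes limma called 0% with and without the date block, 297 (2.32%) had an unadjusted p under 0.05, and the untreated libraries here are also those of the stage comparison. Il4ra was higher with GSI in 4 of 4 date pairs, going from 39.3 untreated to 59.4 treated and from 41.8 to 55.4 FPKM in DN2a, and from 7.95 to 9.61 and from 19.8 to 28.7 in DN2b (0.43, SE 0.35, limma adjusted p = 1, and 0.341 with the block). Il2ra was lower in 4 of 4 pairs, going from 206 to 195 and from 351 to 324 FPKM in DN2a and from 407 to 187 and from 457 to 372 in DN2b (-0.40, SE 0.29, limma adjusted p = 1). Il21r was higher in 4 of 4 by 0.09 to 0.25 on the log2 scale. Il7r was near the floor with GSI too in the date pair of DN2a replicate 1, at 0.792 FPKM. Il2rb, at 0.1 to 0.192 in all 8 libraries, did not pass the filter.

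Since the protocol gives knockout cells a DN2a gate, the 7 knockout OP9-DL1 libraries at standard IL-7 were set beside the 4 DN2a libraries, although only 1 of the 7 is titled DN2a, 5 being titled DN2 and 1 DN2b. Bcl11b itself differed by 1.67 (limma adjusted p = 0.0703), with the higher values in the libraries labelled knockout. Title years do not overlap and only the knockout cells had Cre, so year, Cre and genotype cannot be told apart, and the libraries are shared with the comparisons above. Il2rb (1.75, SE 0.51, limma adjusted p = 0.0322) and Il2rg (0.95, SE 0.23, limma adjusted p = 0.0166) were higher than in DN2a and Il4ra lower (-0.80, SE 0.25, limma adjusted p = 0.0417), 3 of 7 beside 16.9% of 12979 genes (9.67% higher, 7.25% lower). Il2rb reached 1 FPKM in 2 of the 4 DN2a libraries and passed the filter only with knockout libraries counted, and with no filter its adjusted p in limma was 0.0436. Without the library titled DN2b, Il2rb (limma adjusted p = 0.0548) and Il4ra (0.0648) missed the threshold. Il2rg was called in 10 of 11 fits that left out 1 library, missing without DN2a replicate 4 (0.0576), while Il2rb missed in 7 of 11 (adjusted p up to 0.0961) and Il4ra in 8 (up to 0.0963). Il21r differed by 0.58 (limma adjusted p = 0.0977), and passed only without DN2a replicate 3 (0.039). Several marker lists moved with this comparison. Summed T-precursor markers were 825 to 1857 FPKM in the knockout libraries and 445 to 804 in DN2a, with Thy1 and Gata3 called higher. NK and innate lymphoid markers summed to 738 to 1287 and 398 to 748, with Tyrobp and Fcer1g called higher, and Gzma read 1951 to 3456 and 1031 to 1489. Myeloid markers summed to 16.6 to 52.9 and 54.9 to 74.9, with 3 called lower. The part of these markers in the receptor differences was not tested. No kinase or STAT was called. Il15ra (-0.93) and Myc (-0.75) were lower, and Socs1 (2.63) and Socs3 (2.28) higher.

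Single libraries from other sources have no replicates, so their values are set side by side without a test, with a difference of 1 on the log2(FPKM + 1) scale as 2-fold. In fetal liver cells given an empty vector 36 hours before harvest, Il2rb stood at 6.08 FPKM in the control and 31.8 in the knockout, and Il21r at 12.8 and 4.06. These were the members past 2-fold, 1 higher beside 5.07% of genes and 1 lower beside 3.19%. When knockout cells received a Bcl11b vector instead (Bcl11b 105.4 against 24.7 FPKM), Il2rb read 12.4 and Il21r 8.47, with Il2rb past 2-fold lower, beside 1.64% of genes, and no member past 2-fold higher, beside 1.87%. Both values lay between those of the empty-vector knockout and the empty-vector control.

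Thymocytes deleted in vivo by LckCre were sorted as DN2 and set beside an LckCre control sorted as DN3, so that stage differs as well. Title year differs too, the second for the knockout and the third for the control. Il2rb was 3.44 FPKM in the control and 15.3 in the knockout, Il9r 9.09 and 30.8, Il4ra 2.64 and 9.17, and Il7r 40.1 and 85.5, so 4 members were past 2-fold higher, beside 4.73% of genes. Il21r was 12.7 and 3.95, lower beside 3.56%. The layout for Il2rb and Il21r matches in direction that of the fetal liver cultures.

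CreERT2 thymic DN3 cells treated with 100 nM 4-OH tamoxifen and grown on OP9-DL4 for 4 days gave the highest Il2ra of the series in the knockout, 723 FPKM against 123 in the control. Before deletion and culture the floxed cells already stood above the CreERT2 cells, at 422 against 209 FPKM, while Il2rg (125 and 117) and Il2rb (0.849 and 0.964) were close. Il2rg read 279 against 100.2 FPKM and Il2rb 23.2 against 10.4, so 3 members were past 2-fold higher, beside 10.4% of genes. Il9r was lower, 5.29 against 17.2, beside 4.69%, but a second control cultured for 3 days had 7.42, under 2-fold above the knockout. That control had Il2ra at 95.8, Il2rg at 105.2 and Il2rb at 4.04 FPKM, and Il21r was 8.18 in the knockout against 9.45 in the day-4 control. CreERT2 cells with intact Bcl11b had Il2rb at 10.4 FPKM after 4 days against 0.964 ex vivo and Il9r at 17.2 against 4.39, 2 members past 2-fold higher beside 4.02% of genes and none lower beside 4.87%. The cultured cells had also received tamoxifen and been sorted again, so these steps cannot be told apart from culture, and in the 3-day control Il9r was under 2-fold above the ex vivo level.

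Bone marrow precursors carried CreERT2 with floxed or intact Bcl11b, and both were induced with tamoxifen and grown on stroma labelled OP-DL4. The library labelled knockout had a Bcl11b FPKM of 45.0 against 44.9 in its control, so the label was not borne out at the gene level. No member differed 2-fold there (1.46% of genes higher, 1.39% lower), with Il2rb at 7.87 against 6.80 and Il21r at 8.72 against 10.7.

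**Figure D4:**
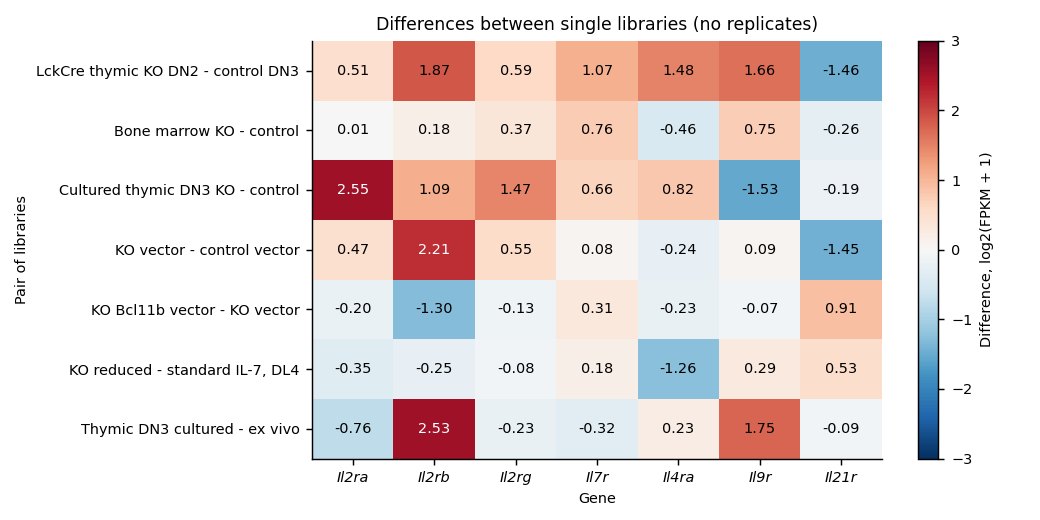
Differences on the log2(FPKM + 1) scale between single libraries, 1 pair per row and 1 receptor gene per column. Il2rb ranges from -1.30 with the Bcl11b vector to 2.53 in cultured, tamoxifen-treated against ex vivo CreERT2 DN3 cells, and Il2ra reaches 2.55 in the cultured DN3 knockout.

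The receptor genes did not share 1 pattern over the 47 libraries. Among members, the highest Pearson correlations of log2(FPKM + 1) were 0.66 between Il2rg and Il7r and 0.64 between Il2rb and Il2rg, while the chromosomal neighbours Il4ra and Il21r had 0.39. Libraries share cultures and title years, so these are descriptions. Of 9098 genes with a mean of at least 5 FPKM, the closest to Il2rb were Gsn (0.86), Dlk1 (0.84) and Ecm1 (0.82), and to Il2rg Rab19 (0.89), Ms4a4b (0.86) and Slc37a3 (0.86). For Il7r they were Ccpg1 (0.91), Clk1 (0.91) and Gimap6 (0.88), and for Il2ra Serpinb6b (0.81) and Evi2b (0.80). Il21r was closest to Gpr132, Frmd6 and Uvrag (each 0.78). The lowest likeness was that of Il4ra (Sgsh 0.73, Lat2 0.68, Grn 0.68) and Il9r (B4galt1 0.71, Rag2 0.69 and the transcript 4632419I22Rik 0.65).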

How the data were processed

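RNA-seq of 47 libraries was analysed from 1 matrix of FPKM values deposited by the authors, named as merged over batches with ComBat. Per the submitters' processing notes the genome build was mm9, and which aligner, quantifier and ComBat covariates were used is not given in the sources used here. Per the labels' protocols, cDNA was made by random priming without strand marking, so antisense transcripts cannot be told apart. A further 16 columns matched no sample and were not used. No 2 libraries held identical values. The receptor genes and all lists were chosen with earlier results of these data known. FPKM were tested as log2(FPKM + 1) with limma 3.58.1 (R 4.3.3, trend) over genes at 1 FPKM or more in at least as many libraries as the smaller group, Benjamini-Hochberg adjusted, called under 0.05, and checked on simulated data. All members were named, together with every called gene of the pathway lists and the 3 genes most like each member, except that some genes of the kinase and STAT list and of the likeness ranking, and the counts that rest on them, are not reported here. Replicates of shared title date were paired by that date in the labels. Same-date libraries deviated from their group means with correlations of -0.06 to 0.54 (9 knockout pairs) and 0.67 to 0.73 (GSI). The GSI groups hold 2 libraries each, so both pairs of a stage give the same value by construction.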

Additional observations from a re-analysis of the deposited data

How the results depend on the processing

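No difference reversed its direction past the threshold. Knockout against control called 2142 genes and 2 members. The replicate block on title dates gave 1282 genes and kept 2 members, averaging harvests 4 members, the first title year alone 475 genes and 1 member, the second 270 and 0, and the third 778 and 1. In subsets chosen after seeing the data, the second and the third title year together gave 1405 genes and 1 member, standard IL-7 gave 1396 genes and 1 member, reduced IL-7 430 and 1, OP9-DL1 988, and OP9-DL4 451 and 0. The fit over those years is in effect that at standard IL-7, so these are not separate checks. The member counts do not refer to the same gene throughout. The 1 member called at standard IL-7 was Il21r, and the 1 called at reduced IL-7 was Il2rb. At reduced IL-7 and in the first title year alone, every control Il2rb value is at the floor. There Il2rb passed the filter only with knockout libraries counted, so a call of Il2rb is no check on the main result. Il21r was not called in either of those fits. Leaving out single libraries gave 1830 to 2246 genes and 2 to 3 members. The IL-7 coefficient called 2 genes, 15 without a filter, 1 after quantile normalization, 0 with title year and 0 to 54 leaving out libraries (54 without knockout OP9-DL4 replicate 5). The IL-7 interaction called 100 genes (92 higher, 8 lower), 59 after quantile normalization (46 and 13) and 40 to 202 leaving out libraries (202 without knockout OP9-DL4 replicate 5, 40 without knockout OP9-DL1 replicate 1, 43 without control OP9-DL4 replicate 1, 49 without knockout OP9-DL4 replicate 1). It called 1 member with a pseudocount of 0.1 and 0 to 1 leaving out libraries. The stroma interaction called 0 genes, and 0 to 4 leaving out libraries. DN2a against DN2b called 1799 genes (565 higher, 1234 lower), 1065 with a pseudocount of 0.1, 68 and 0 members in the first title year alone, 624 and 0 members with the title-date block, and 60 to 1406 genes with 0 to 2 members leaving out libraries (60 without DN2b replicate 1, 234 without DN2a replicate 4, 802 without DN2b replicate 2, 1184 without DN2a replicate 2). Quantile normalization turned its split to 662 higher and 567 lower. Knockout against DN2a called 1160 to 2404 genes and 0 to 3 members leaving out libraries (1160 without DN2a replicate 4, 1311 without DN2a replicate 2). GSI called 0 genes under every alternative run. The cause of these shifts was not tested beyond the smaller number of libraries. With no counts in the table, sampling error of low values such as Il2rb and Il21r cannot be set apart from other spread.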
